A study of Mus musculus with 20 samples.

Results

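The genes described here encode proteins of the cytosolic ribosome, in the livers of male mice on a western diet. Members were taken by symbol alone, as Rpl, Rplp or Rps followed by a number and at most 1 of the letters a, x or l, which leaves out pseudogenes and the Rps6 kinases. The rule found 44 of the 13319 symbols counted in every library, 27 of the large subunit or its P stalk and 17 of the small subunit. Other genes of the family, among them Rps6, Rpl11, Rps27, Rpl10 and Rpl39, were not among these symbols. Shares, medians and counts of members therefore cover only part of the ribosome's proteins. Each library came from the liver of 1 mouse, with 4 libraries in each of 5 groups, and treatment was daily for 16 days. The groups were a control; glucagon, the fasting hormone of the pancreas; T3, the thyroid hormone triiodothyronine; both hormones given as separate agents (the combination); and 1 molecule made of both (the hybrid). The labels code the last group Cp, which was taken as the hybrid by elimination. Strain, age, doses and what the controls received are not stated.

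A cytosolic ribosome holds 1 copy of most of its proteins, which are made in the cytoplasm, carried to the nucleolus and built onto rRNA. The mRNAs of these proteins start with a run of pyrimidines, the TOP motif, through which the growth kinase mTOR controls their translation, so that much of the control of this family acts on translation and not on mRNA level. Many of these genes also have processed pseudogenes, copies of their spliced mRNAs scattered over the genome, in numbers that differ widely between genes. The mouse liver is a tissue of high protein synthesis in which glucagon and thyroid hormone both act on hepatocytes.

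Because of those copies, the sequence of a member decides how many of its reads belong to it alone. The stretch of codons 21 to 40 shows the range. For Rpl21, a large subunit protein gene on chromosome 5 (146832890 to 146837032, plus strand, GRCm38), the 60 bases were identical in 19 annotated pseudogene transcripts. For Rpl8, a large subunit protein gene on chromosome 15 (76904078 to 76906314, plus strand), no pseudogene transcript held the stretch unchanged, and the closest, Gm14294, differed at 21 bases, which are in capitals below.
Rpl21 codons 21 to 40: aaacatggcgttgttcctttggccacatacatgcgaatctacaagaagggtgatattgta
Rpl8 codons 21 to 40: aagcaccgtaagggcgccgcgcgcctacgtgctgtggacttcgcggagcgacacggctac
Gm14294, the same stretch: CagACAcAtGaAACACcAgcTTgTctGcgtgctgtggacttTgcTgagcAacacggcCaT
Over the whole set, the windows of 50 bases in a member's transcript that also occurred in a transcript of another gene made up a median of 38.8%, from 0 to 88.1%. In the other genes the median was 0, and 2.06% of them exceeded 50%, against 16 members. Within coding sequence alone, the median over members was 81.3%. The labels and files do not give the read length, the aligner or the handling of reads with several matches, so levels of members with near-identical copies are uncertain.

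The members were counted at low depth, which sets the precision of what follows. Levels are given as CPM, read counts scaled to library size with the factors of TMM, edgeR's trimmed mean of M values. The median member had 4.03 CPM, against 14.6 over all genes tested, and 30 of 43 members lay below the median gene. Of the members, 14 were under 2 CPM and 11 were at 20 CPM or more. The median member had between 30.5 and 71 counts in a library, out of totals of 6091917 to 23195658. Rps24, a small subunit protein gene, had 2 to 21 counts per library and was left out of the tests between groups by the filter on low counts, so 43 members were tested there.

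Levels differed widely between members (CPM, not corrected for length). Rpl8, a protein of the core around the peptidyl transferase centre, averaged 220 CPM. Rpl4, which lines the exit tunnel of the nascent chain, averaged 142 CPM, and Rplp0, the base of the P stalk that recruits elongation factors, 101 CPM. Among the other members at 20 CPM or more were Rps3 at 56.3 CPM, at the mRNA entry channel, Rps9 at 47.1, Rpl13a at 30.4, Rpl7a at 27.1, Rplp1 at 25.7 and Rpl22 at 20.2. The fewest counts came from Rps24 (0.584 CPM), Rps29 (0.593) and Rpl21 (0.641). Per kilobase of the 1 transcript taken for each gene, Rpl8 had 259 CPM per kilobase. It was followed among these genes by Rpl4 (92.4), Rplp0 (74.6), Rps9 (62.7), Rplp1 (51.5) and Rpl22 (42.6), with Rpl5 (0.641) and Rpl21 (0.713) at the low end. The order depends on the length used: per kilobase of all annotated exons, Rplp1 had 51.5 CPM, Rps9 18.7 and Rpl22 6.93. Whether reads covered whole transcripts, which a division by length presumes, was not checked.

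**Figure D1:**
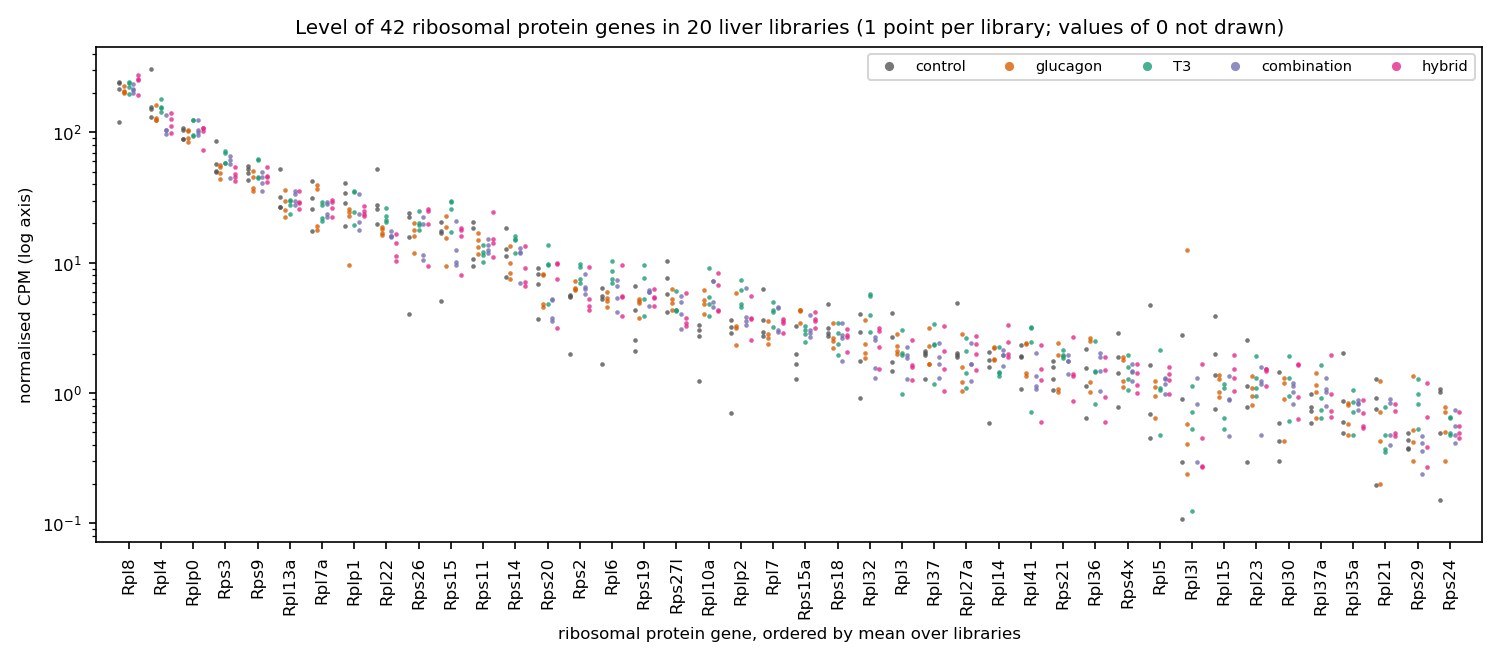
Normalised CPM (log axis) of 42 ribosomal protein genes, ordered by mean level, with 1 point per library coloured by group. Rpl8, Rpl4 and Rplp0 lie on the left at means of 220, 142 and 101 CPM, and the lowest genes lie under 1 CPM; values are not corrected for length.

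Levels per length of transcript varied with how much coding sequence a gene shared. Of the coding windows of Rpl8 8.73% were shared, and of those of Rpl4 20.3%. In the 12 members with at least 90% of coding windows shared, the median was 1.66 CPM per kilobase (0.641 to 29.7). In the 18 members between 50% and 90% it was 4.99 (1.15 to 74.6), and in the 13 members under 50% it was 29.5, from 0.929 upwards. Across the 43 genes, which are not independent replicates and share every library, Spearman's rho between the unshared percentage of coding windows and CPM per kilobase was 0.562. With whole transcripts it was 0.226, and it was 0.133 and 0.287 for windows of 35 and 75 bases. The coding measure was chosen after the transcript measure had been seen. Some genes went against the trend: Rpl3l and Rpl41 share little coding sequence and were at 0.929 and 3.50 CPM per kilobase, while Rpl7a shares 93.3% and was at 29.7.

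**Figure D2:**
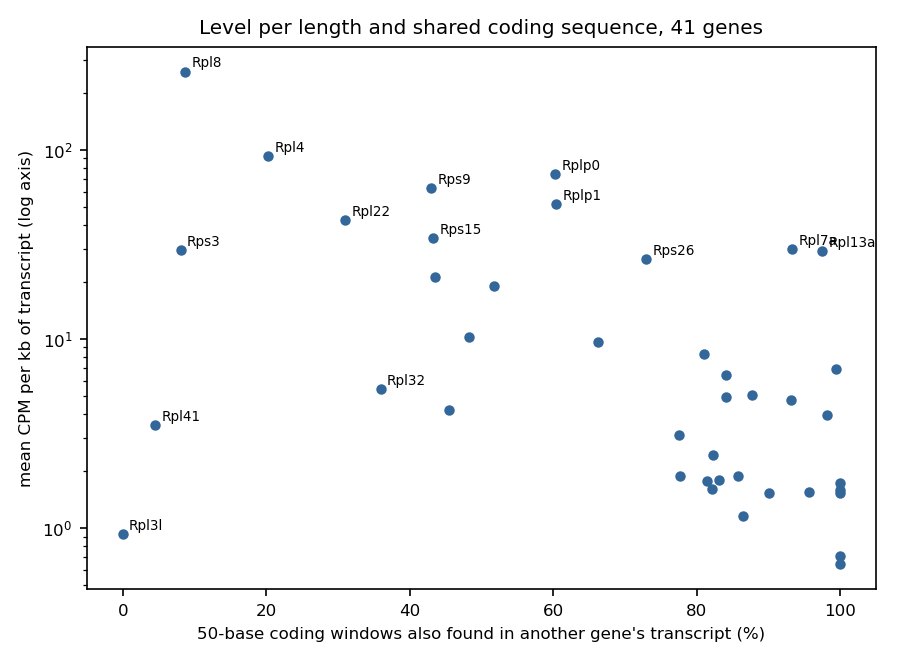
Mean CPM per kilobase of transcript (log axis) against the percentage of a gene's 50-base coding windows that also occur in another gene's transcript, 1 point for each of 41 tested members. Rpl8, with 8.73% of its windows shared, lies at 259 CPM per kilobase, and most genes under 2 CPM per kilobase lie at high shares.

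Among ribosomal proteins that the symbol rule leaves out, Rpsa had a mean of 0.959 CPM and Fau 3.03, while Gnb2l1, which encodes the small subunit protein RACK1, had 412, not corrected for length. None of the 5 tested genes of that list passed the test in any comparison (edgeR, Benjamini-Hochberg); at an unadjusted p under 0.05, 1 did so in the hybrid against T3 and 0 in the other comparisons.

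As a share of all counts, the members made up 0.117% to 0.214% of a library. Most of these counts came from a few members of high level, so neither this share nor a summed CPM describes the typical member. The share ran from 0.145% to 0.184% in control, 0.117% to 0.134% in glucagon, 0.148% to 0.203% in T3, 0.143% to 0.201% in the combination and 0.141% to 0.214% in the hybrid. All 4 glucagon libraries thus lay below every other library. With the 50 most abundant other genes of each library taken out, the shares were 0.202% to 0.237% in glucagon and 0.240% to 0.329% in control, and the glucagon range overlapped those of T3 (0.234% to 0.301%), the combination (0.227% to 0.308%) and the hybrid (0.224% to 0.321%). TMM factors were 0.83 to 0.85 in glucagon, 0.806 to 1.09 in control, and 0.949 to 1.22 over T3, the combination and the hybrid. After that scaling the members' summed CPM in glucagon still lay below every control library and overlapped the other 3 groups: it was 1604 to 2277 in control, 1417 to 1570 in glucagon, 1448 to 1869 in T3, 1436 to 1841 in the combination and 1338 to 1843 in the hybrid. In bulk tissue, fewer cells of a type and less RNA per cell cannot be told apart.

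**Figure D3:**
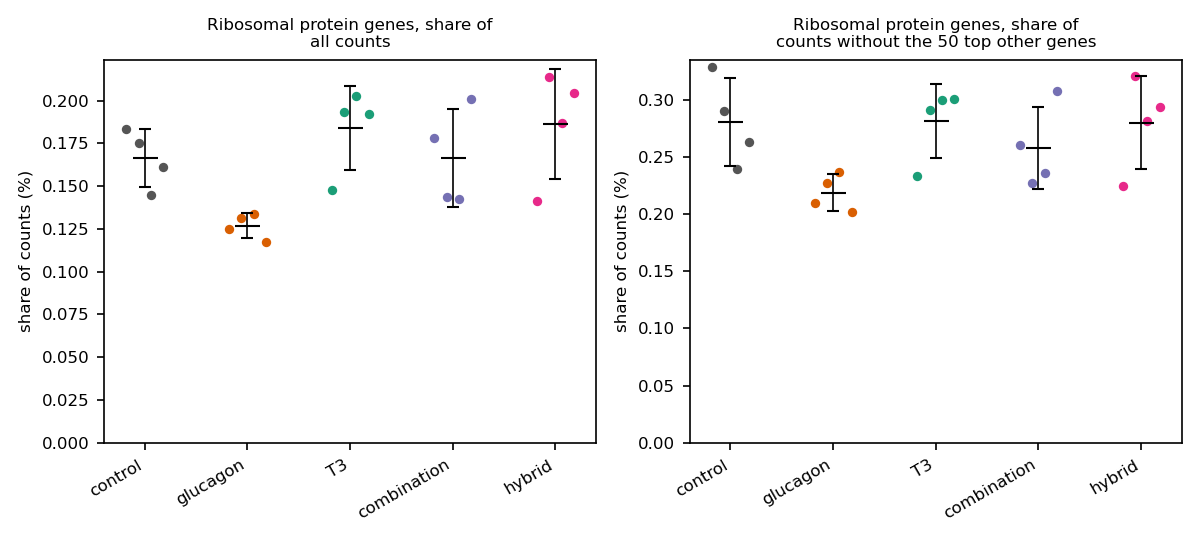
Share of counts (%) in the 44 ribosomal protein genes, by group, from all counts (left) and after the 50 most abundant other genes of each library were taken out (right). Points are libraries, and bars are the mean and SD (n = 4); the glucagon libraries lie lowest on the left and overlap 3 of the other groups on the right.

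Before the comparisons, the libraries that touch them are named. Control replicate 1 stood apart among the members: Rpl4 (304 CPM), Rpl22 (52.0) and Rpl13a (52.2) were highest there, and Rpl8 (120), Rps26 (4.06), Rps15 (5.08) and Rps2 (1.98) lowest, genes chosen here after their values were seen. Hepatocyte markers were present throughout, with none of the 10 at 0. Their summed CPM was 125000 to 217000 in control and 142000 to 197000 in glucagon. It was 107000 to 133000 in T3, 112000 to 145000 in the combination and 99700 to 129000 in the hybrid. The T3 and hybrid ranges thus lay below that of glucagon and overlapped that of control. The 13 macrophage and Kupffer cell markers, with none at 0, summed on the same scale to 447 to 550 in glucagon and 616 to 1550 in control. They summed to 1690 to 2260 in T3, 1310 to 1480 in the combination and 1450 to 1910 in the hybrid. The part of either set of markers in the members' values was not tested. The labels place replicates 1 to 4 of control, glucagon, combination and hybrid in lanes 1 to 4, and every T3 library in lane 5, so that a T3 effect and a lane 5 effect cannot be told apart.

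Against control, few members were called, and each count stands beside the share of all genes called in the same comparison. Calls are those of edgeR's quasi-likelihood fit with a Benjamini-Hochberg adjusted p below 0.05 over 12907 genes, and "rose" and "fell" refer to them. With glucagon 2 of 43 members rose and 1 fell, while 21.2% of all genes were called (9.23% higher, 11.9% lower). With T3 3 rose and 0 fell, against 18% of all genes (7.31% higher, 10.6% lower). With the combination 1 rose and 2 fell, against 20.1% (9.23% higher, 10.9% lower), and with the hybrid 2 rose and 3 fell, against 24.4% (11.2% higher, 13.2% lower). Groups did not overlap in 4, 7, 3 and 2 members, in the same order, against 16.6%, 15%, 16.6% and 17.7% of all genes. At an unadjusted p, 12 members passed 0.05 with T3, against 32.5% of all genes. Of the 11 members at 20 CPM or more, 1, 0, 2 and 2 were called. DESeq2 called 3, 4, 3 and 5 members. Scaled by library totals alone, 1 rose and 2 fell with glucagon, 4 and 0 with T3, 2 and 1 with the combination and 3 and 1 with the hybrid. Fitted on the compared groups alone, edgeR called 0, 0, 0 and 1.

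The typical member moved little. The median log2 change over the 43 members was -0.07 with glucagon, 0.10 with T3, -0.18 with the combination and -0.11 with the hybrid, beside -0.09, -0.05, -0.07 and -0.05 over all genes. The SD of a library's median member level within groups was 0.13 on the log2 scale. Without control replicate 1 these medians were 0.01, 0.20, 0.02 and 0.04. Low counts limited single members: the 95% intervals of the log2 changes reached a median of 0.67 to 0.69 to either side, and of 0.41 in the 11 members at 20 CPM or more. The whole interval lay within 1 log2 unit of zero for 25, 16, 19 and 18 members, so that larger changes remained possible in the rest.

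**Figure D4:**
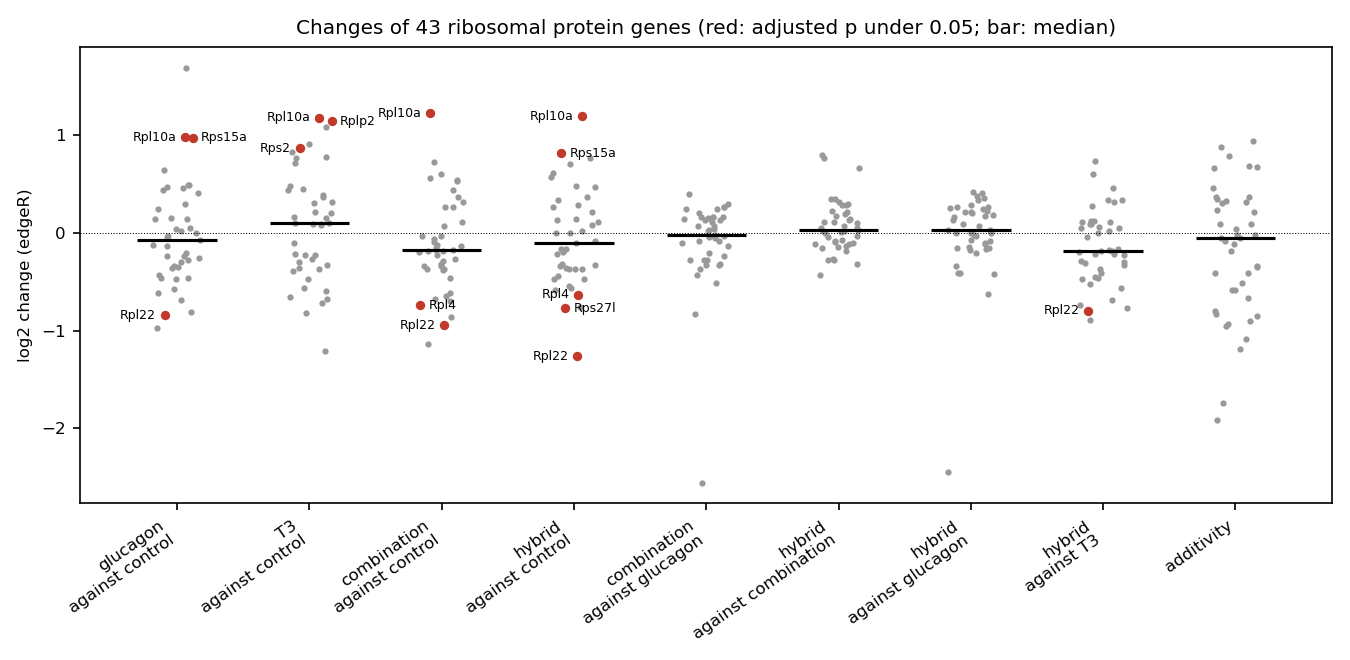
Log2 changes (edgeR) of the 43 tested members in the 8 comparisons of groups and in additivity (combination minus glucagon minus T3 plus control), 1 point per gene, with a bar at the median. Red points passed an adjusted p of 0.05 and are named; medians lie between -0.18 and 0.10, and the red points lie on both sides of zero.

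Among the proteins of the large subunit, Rpl10a rose with every treatment. Its protein is part of the mobile stalk near the exit site for tRNA. The gene lies on chromosome 17 (28328471 to 28331033, plus strand). Control libraries held 1.23, 3.04, 3.33 and 2.72 CPM. Glucagon libraries held 6.15, 4.79, 5.17 and 4.03 CPM, and T3 libraries 3.92, 4.85, 5.43 and 9.11. Every treated library was above every control library, also in the combination (7.17, 4.95, 7.23 and 4.55) and the hybrid (4.24, 4.33, 6.77 and 8.31). The log2 change was 0.98 ± 0.31 (SE) with glucagon (adjusted p = 0.0314, edgeR) and 1.18 ± 0.32 with T3 (adjusted p = 0.0165). It was 1.23 ± 0.31 with the combination (adjusted p = 0.00952) and 1.20 ± 0.31 with the hybrid (adjusted p = 0.00876). These 4 comparisons share the control libraries. The glucagon call was lost without control replicate 1 (adjusted p = 0.0782) or glucagon replicate 1 (0.0825), 2 (0.0516) or 3 (0.055) and under library totals alone (0.094), and the T3 call without T3 replicate 4 (0.0758). Of the gene's coding windows 99.5% also occur in other genes' transcripts, among them 5 pseudogenes, and it overlaps a lncRNA on the opposite strand, so its reads may not all be its own.

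Rpl22 fell with glucagon, the combination and the hybrid. It encodes a large subunit protein that is dispensable for bulk translation and is known for its role in the development of T cells. The gene lies on chromosome 4 (152325742 to 152334071, plus strand). Control libraries held 52.0, 19.7, 27.8 and 26.0 CPM. Levels were 17.0, 18.7, 18.1 and 16.2 CPM with glucagon and 15.6, 17.6, 16.1 and 15.9 with the combination. The hybrid libraries held 14.2, 11.2, 10.3 and 16.6 CPM, of which 3 lay below every library of the other groups, and the T3 libraries (26.1, 21.1, 20.5 and 23.0) lay within the control range. The log2 change was -0.84 ± 0.22 with glucagon (adjusted p = 0.00911, edgeR), -0.94 ± 0.22 with the combination (adjusted p = 0.00485) and -1.26 ± 0.22 with the hybrid (adjusted p = 0.000351). With T3 it was -0.47 ± 0.22 (adjusted p = 0.143, edgeR), not called, though it was called without control replicate 2 (adjusted p = 0.0342). Leaving out any 1 library kept the calls against control, with adjusted p up to 0.0371, 0.0184 and 0.00262; without control replicate 1 the changes had their smallest size, -0.47, -0.59 and -0.90. Rpl22 was the single member that differed between hybrid and T3, at -0.80 ± 0.22 (adjusted p = 0.0371). That call was lost in 12 of the 20 fits that each left out 1 library, with an adjusted p of up to 0.128 (without hybrid replicate 2). Of its coding windows 31.0% occur elsewhere, and no other annotated gene overlaps it.

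Rpl4 fell with the combination and the hybrid, in calls that were lost when single libraries were left out. Control libraries held 304, 151, 131 and 157 CPM. The combination libraries held 98.0, 105, 105 and 137 CPM, and the hybrid libraries 99.8, 140, 112 and 126. Both sets overlapped the control range. The log2 change was -0.74 ± 0.21 with the combination (adjusted p = 0.0168, edgeR) and -0.64 ± 0.21 with the hybrid (adjusted p = 0.0321). Without control replicate 1 they were -0.40 (adjusted p = 0.0652) and -0.29 (adjusted p = 0.17), and without combination replicate 1 the first had an adjusted p of 0.0558. The hybrid call was also lost without hybrid replicate 1 (0.0939), 3 (0.0882) or 4 (0.0622). Under library totals alone neither call held (adjusted p = 0.0627 and 0.271). With lane as a block over the 16 libraries of lanes 1 to 4, a fit added after seeing the data, adjusted p was 0.0587 and 0.0939. With glucagon Rpl4 changed by -0.46 ± 0.21 (adjusted p = 0.122, edgeR) and was not called. It was called there without control replicate 3 (adjusted p = 0.0369) and under library totals alone (0.0409). The gene hosts 2 snoRNAs.

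In the P stalk, whose proteins bind the elongation factors, only Rplp2 was called, and only with T3. Its CPM was 0.695, 2.90, 3.23 and 3.62 in control and 4.54, 6.16, 4.84 and 7.35 in T3, with no overlap between them. Rplp2 rose by 1.14 ± 0.39 on the log2 scale (adjusted p = 0.0491, edgeR). The call was lost in 13 of the 20 fits without 1 library, with an adjusted p of up to 0.124 (without T3 replicate 4) and of 0.102 without control replicate 1. Rplp2 libraries of the combination (3.32 to 6.40 CPM) and the hybrid (2.56 to 5.51 CPM) overlapped both groups. Rplp0, often used as a reference gene in PCR, held 88.5 to 109 CPM in control and 72.9 to 124 over the other groups. Its log2 changes against control were -0.03 ± 0.15 with glucagon, 0.17 ± 0.15 with T3, 0.12 ± 0.15 with the combination and 0.00 ± 0.15 with the hybrid. The widest of their 95% intervals ran from -0.15 to 0.48, with T3. Under library totals alone, Rplp0 was called higher in the combination against glucagon (0.465, adjusted p = 0.0308, edgeR). The same held for the hybrid against glucagon (0.469, adjusted p = 0.0226). Rplp1, the partner of Rplp2, had changes from -0.58 ± 0.28 with glucagon to -0.11 ± 0.28 with T3, and none was called.

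Among the proteins of the small subunit, Rps15a rose with glucagon and the hybrid. The gene lies on chromosome 7 (118104372 to 118116188, minus strand). It held 3.26, 1.98, 1.67 and 1.28 CPM in control and 4.24, 4.33, 3.45 and 4.33 in glucagon, with no overlap. Levels in the hybrid were 3.59, 3.72, 4.15 and 3.17 CPM, the last of them below control replicate 1. The log2 change was 0.98 ± 0.24 with glucagon (adjusted p = 0.00682, edgeR) and 0.82 ± 0.24 with the hybrid (adjusted p = 0.0184). Leaving out any 1 library kept the glucagon call (adjusted p up to 0.0239). The hybrid call was lost without hybrid replicate 3 (0.0536) or control replicate 4 (0.0615). The changes with T3 (0.48 ± 0.25, adjusted p = 0.191) and the combination (0.61 ± 0.24, adjusted p = 0.0845) were not called, and without control replicate 1 both were (0.0214 and 0.00528). Of its coding windows 84.2% occur elsewhere.

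Rps2, a protein near the mRNA entrance, rose with T3. It held 1.98, 5.46, 5.68 and 5.51 CPM in control and 9.81, 9.31, 7.55 and 7.03 in T3. Rps2 rose by 0.87 ± 0.28 on the log2 scale (adjusted p = 0.0389, edgeR), and the call was lost without control replicate 1 (0.087) or any 1 T3 library (0.0504 to 0.0999). Glucagon libraries (6.27, 7.24, 6.18 and 6.34 CPM) and combination libraries (6.45, 5.74, 8.22 and 6.31 CPM) also lay above every control library, without passing the test (adjusted p = 0.221 and 0.191). The gene shares windows with 71 pseudogenes and overlaps the antisense transcript Snhg9, whose reads cannot be told apart from its own unless counting used strand.

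Rps27l fell with the hybrid. It is a paralogue of Rps27 and a target of p53. Control libraries held 7.59, 10.3, 4.21 and 5.73 CPM, and hybrid libraries 3.26, 5.80, 3.79 and 3.45, with overlap. Its log2 change with the hybrid was -0.77 ± 0.26 (adjusted p = 0.0364, edgeR). The call was lost without control replicate 1 (0.0677) or 2 (0.146) and without hybrid replicate 1 (0.104), 3 (0.092) or 4 (0.103), and under library totals alone (0.194). The other treatments had changes of -0.43 ± 0.26 with glucagon, -0.56 ± 0.27 with T3 and -0.67 ± 0.26 with the combination, none of them called. Without control replicate 3 the changes with T3 (adjusted p = 0.0427, edgeR) and the combination (0.0166) were called. Another target of p53 that stops the cell cycle, Cdkn1a, rose by 2.49 ± 0.66 with glucagon (adjusted p = 0.011, edgeR) and was not called with the hybrid. Its control libraries were spread widely, at 5.24, 97.5, 5.10 and 13.3 CPM. Cdkn1a is 1 of 25 tested genes that signal growth to the ribosome, of which 3 rose and 2 fell with glucagon. Among those that fell was Sesn1, at -0.92 ± 0.22 (adjusted p = 0.00513, edgeR). Mdm2 had a mean of 24.18 CPM in control and 26.96 CPM in glucagon. Targets of p53 were not tested as a set, and a link between Rps27l and Cdkn1a was not tested.

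**Figure D5:**
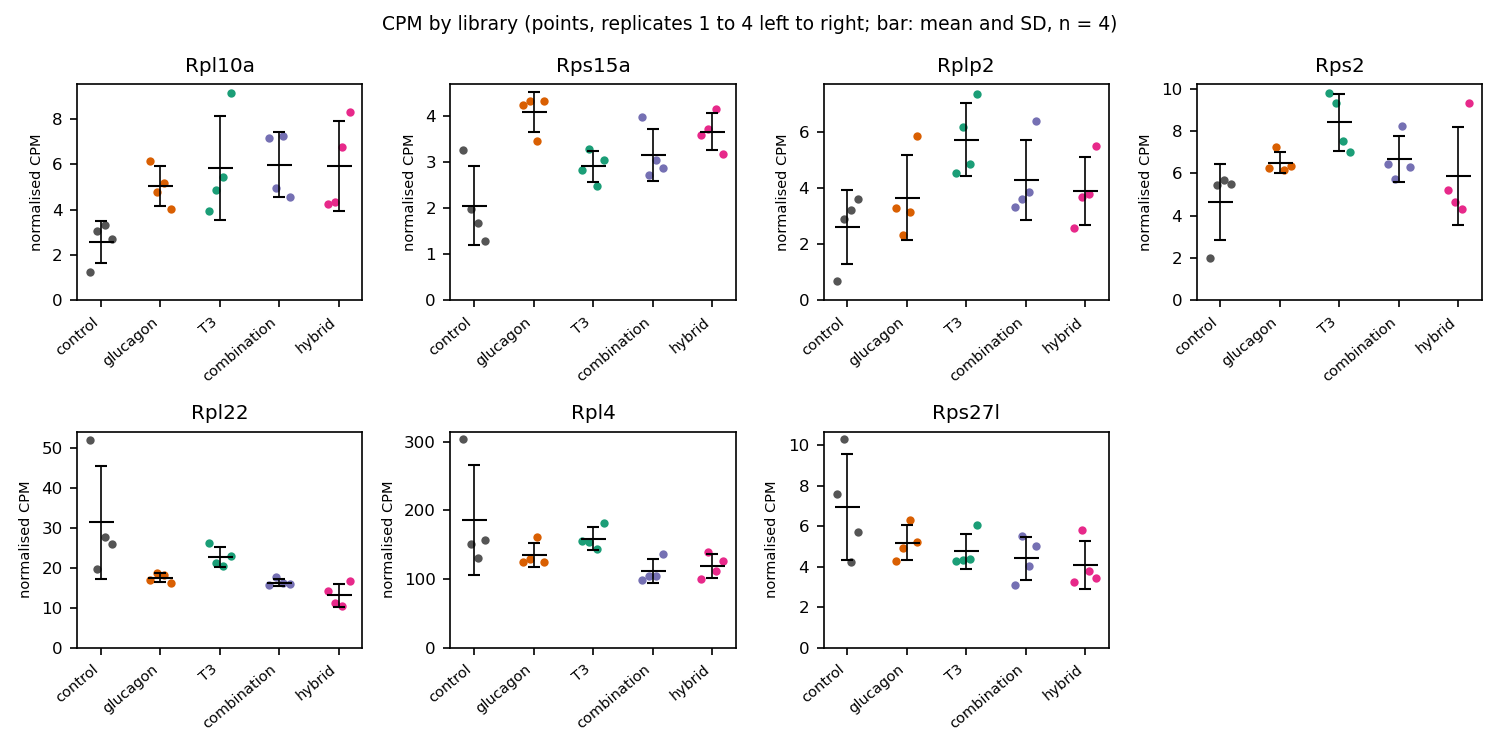
Normalised CPM by library for the 7 members called in some comparison, by group. Points are replicates 1 to 4 from left to right, and bars are the mean and SD (n = 4); control replicate 1 lies far above its group in Rpl22 and Rpl4, and below it in Rps2 and Rplp2.

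The other genes of a fixed panel were not called in the fit of all libraries under TMM. Rps3 changed by -0.26 ± 0.17, 0.08 ± 0.17, -0.10 ± 0.17 and -0.37 ± 0.17 with glucagon, T3, the combination and the hybrid. The hybrid libraries of Rps3 (42.0 to 54.2 CPM) all lay below the T3 libraries (58.3 to 72.5 CPM), a difference of -0.45 ± 0.17 (adjusted p = 0.125). That difference was called without control replicate 1 (adjusted p = 0.0318, edgeR) and with the compared groups alone (0.0378). Under library totals alone, Rps3 was called higher in the combination against glucagon (0.483, adjusted p = 0.0348, edgeR). Rpl5, which binds Mdm2 when ribosome assembly fails, had between 0.453 and 4.76 CPM and changes of -0.97 ± 0.52 to -0.57 ± 0.51 against control, none of them called. Rpl3 and the X-linked Rps4x, at means of 2.08 and 1.5 CPM, had changes from -0.55 ± 0.34 to -0.14 ± 0.34 and from -0.44 ± 0.33 to -0.24 ± 0.33, with no call. Rps29, the lowest tested, had higher values in T3 (0.524 to 1.28 CPM) than in control (0.374 to 0.490 CPM), a change of 1.09 ± 0.51 (adjusted p = 0.144).

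Rpl3l was high in single libraries. This paralogue of Rpl3 is made in skeletal muscle and heart. It held 12.6 CPM (176 counts) in glucagon replicate 3, 2.80 CPM (58 counts) in control replicate 2 and at most 1.68 CPM elsewhere. The 10 skeletal muscle markers made up 0.279% of the counts of glucagon replicate 3, 0.0934% of those of control replicate 2 and at most 0.0659% elsewhere, and no marker was at 0 in all libraries. The change with glucagon was 1.69 ± 1.06 (adjusted p = 0.27, edgeR). Without both libraries, the calls against control were 2 higher and 1 lower with glucagon, 3 and 2 with T3, 2 and 2 with the combination and 3 and 2 with the hybrid; Rpl10a with glucagon (adjusted p = 0.0524), Rplp2 with T3 (0.0552) and Rps27l with the hybrid (0.133) were then not called.

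Between the treatments, at most 1 member was called in any comparison fitted under TMM scaling of all libraries. T3 against glucagon and the combination against T3 were not fitted. Under library totals alone, 3 members were called in the combination against glucagon and 6 in the hybrid against glucagon, all higher, and the hybrid against T3 had 2 with the compared groups alone or with replicate number as a block. In the combination against glucagon 0 of 43 were called by edgeR and 0 by DESeq2, while edgeR called 22.5% of all genes; at an unadjusted p, 1 member passed 0.05, against 33.9% of all genes. In the hybrid against glucagon the counts were 0, 0 and 1 in the same order, against 25.2% of all genes called and 36.3% at an unadjusted p. In the hybrid against the combination they were again 0, 0 and 1, where 0.031% of all genes were called and 6.90% passed unadjusted. The hybrid against T3 had 0 higher and 1 lower, against 6.36% of all genes called and 2.67% lower. For additivity, 0 members were called by either tool and 7 passed an unadjusted p of 0.05, against 3.73% and 16.8% of all genes. Median changes of the members were -0.02 in the combination against glucagon, 0.03 in the hybrid against glucagon and against the combination, -0.18 in the hybrid against T3 and -0.05 for additivity. The 95% intervals reached a median of 0.67 to 0.68 to either side, and of 0.95 for additivity, so smaller differences between treatments were not detectable in most members.

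Between the lanes, members stood out at an unadjusted p. Across lanes 1 to 4, with the group in the fit, 11 of 43 members passed an unadjusted p of 0.05 (edgeR), against 7.95% of 12896 genes, where the filter, run on these 16 libraries, kept Rps24 and left out Rps29, and 0 members passed after adjustment, against 0.0233% of genes. They were Rps15, Rps14, Rps26, Rps20, Rpl32, Rplp2, Rpl27a, Rpl6, Rplp1, Rpl7a and Rpl15. Rps26 held its lowest value in replicate 1 of all 4 groups (4.06 CPM in control, 11.8 in glucagon, 10.5 in the combination and 9.41 in the hybrid), and Rpl15 its highest (3.90, 1.37, 1.36 and 1.96). Over all genes, 0.999% were lowest and 1.20% highest in replicate 1 of all 4 groups. These genes are named for this pattern after it was seen.

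Counts of called genes in the lists that follow stand against 21.2% of all genes called with glucagon (9.23% higher), 18% with T3 (7.31%), 20.1% with the combination (9.23%) and 24.4% with the hybrid (11.2%). Fits that leave out single libraries are not given for the genes of these lists. Of 65 tested factors that build ribosomes, 9 rose and 1 fell with glucagon, 3 and 2 with T3, 7 and 0 with the combination and 10 and 2 with the hybrid. Genes that rose made up a larger part of the list than of all genes with glucagon and the hybrid. The part was only slightly larger with the combination, and smaller with T3. Genes that fell, and both directions together, made up a smaller part in each comparison. These differences were not tested. Nolc1, a nucleolar chaperone of snoRNPs, rose by 1.54 ± 0.17 with glucagon (adjusted p = 1.84e-06, edgeR). Its changes were 0.58 ± 0.17 with T3, 0.59 ± 0.17 with the combination and 0.63 ± 0.17 with the hybrid, all called, and its combined effect was below the sum of the single ones by a log2 change of -1.53 ± 0.24 (adjusted p = 0.000583). Bysl, needed for the small subunit, rose by 0.93 ± 0.15 with glucagon, 0.72 ± 0.15 with the combination and 0.76 ± 0.15 with the hybrid. Rrp1b, of the nucleolus, rose by 1.06 ± 0.22 with T3, 0.94 ± 0.22 with the combination and 1.13 ± 0.22 with the hybrid.

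RNA polymerase I, which transcribes rRNA, had 13 tested subunits and factors. With glucagon 2 rose, with T3 3, with the combination 2 and with the hybrid 5, and 0 fell in these comparisons, where 9.23%, 7.31%, 9.23% and 11.2% of all genes rose; the difference from all genes was not tested. Polr1d, a subunit shared with polymerase III, rose by 1.58 ± 0.15 with glucagon (adjusted p = 1.48e-07, edgeR), 0.70 ± 0.14 with the combination and 0.41 ± 0.14 with the hybrid. Polr1a, the largest subunit, rose by 0.62 ± 0.15 with T3, 0.80 ± 0.15 with the combination and 0.73 ± 0.15 with the hybrid. Rrn3, which links growth signals to the polymerase, rose by 0.71 ± 0.18 with glucagon and 0.54 ± 0.18 with the hybrid.

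Of 25 tested genes that signal growth to the ribosome, 3 rose and 2 fell with glucagon, 0 and 2 with T3, 2 and 0 with the combination and 2 and 2 with the hybrid. Both directions together, this was no larger a part of the list than of all genes. Ddit4, an inhibitor of mTORC1, rose by 1.96 ± 0.33 with glucagon (adjusted p = 0.000302, edgeR), and its combined effect was below the sum by -1.91 ± 0.47 (adjusted p = 0.0236). Sesn1, another inhibitor of mTORC1, fell by 0.92 on the log2 scale with glucagon (adjusted p = 0.00513). Mycn, a transcription factor of the Myc family, fell by 2.39 with glucagon (adjusted p = 0.00678) and by 2.01 with the hybrid (adjusted p = 0.0158) on the log2 scale, at a mean of 2.24 CPM. Maf1, a repressor of RNA polymerase III, rose by 0.57 ± 0.12 with the combination and 0.54 ± 0.12 with the hybrid. Larp1, which binds TOP mRNAs, rose by 0.66 ± 0.21 with both the combination and the hybrid. Control replicate 1 was its lowest control library (40.5 CPM, others 76.0 to 125). Rragc and Rheb, which carry amino acid and growth signals to mTORC1, fell with T3 by 0.64 and 0.92 on the log2 scale (adjusted p = 0.00478 and 0.0168, edgeR). Control replicate 1 was the highest control library of Rheb (50.4 CPM, others 17.5 to 28.3). Mtor changed by 0.26 ± 0.17 with glucagon and 0.33 ± 0.17 with T3, and Myc by 0.65 ± 0.57 and 0.10 ± 0.58, none of them called.

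Few translation factors whose mRNAs carry a TOP motif were called. Of 18 tested, 1 rose and 1 fell with glucagon, 0 and 2 with T3, 1 and 2 with the combination and 0 and 3 with the hybrid. Both directions together, this was a smaller part of the list than of all genes in each comparison, which was not tested. Naca, of the complex that binds nascent chains, was the gene that rose, by 0.91 ± 0.28 with glucagon (adjusted p = 0.0246, edgeR) and 0.88 ± 0.28 with the combination (adjusted p = 0.0314). Eef1a1 had a mean of 29.1 CPM and Eef2 of 797 CPM, and neither was called against control. Eif3e, a subunit of the initiation factor that binds the small subunit, fell by 0.82 with T3, 1.14 with the combination and 0.98 with the hybrid on the log2 scale. Eif4a2, an initiation helicase, fell by 1.14, 0.93 and 1.18 in the same order. Control replicate 1 was the highest control library of Eif4a2 (170 CPM, others 62.2 to 75.2) and of Eif3e (13.3 CPM, others 5.59 to 8.16).

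Promoter windows of RefSeq (GRCm38.p6; 300 bases that span an annotated start) were found for 30 of the 44 members, 40 windows in all. Windows of 4 called members, 2 that rose and 2 that fell, are shown with the pyrimidine runs near their start. In the 60 bases below, 40 before and 20 after the start, capitals mark pyrimidine runs within 20 bases of the start that begin with C and go on for at least 4 more pyrimidines.
Rps15a, chr7:118116128-118116187, minus strand: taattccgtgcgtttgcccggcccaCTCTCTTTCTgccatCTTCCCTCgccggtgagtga
Rplp2, chr7:141447611-141447670, plus strand: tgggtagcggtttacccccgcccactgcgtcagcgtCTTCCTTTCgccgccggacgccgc
Rpl4, chr9:64173347-64173406, plus strand: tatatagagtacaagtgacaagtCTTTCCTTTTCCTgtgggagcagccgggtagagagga
Rpl22, chr4:152325686-152325745, plus strand: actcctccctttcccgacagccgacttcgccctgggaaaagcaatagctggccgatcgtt
Such a run lay within the 41 bases centred on the start in 26 of the members' 40 windows (65.0%), against 46.7% of 32851 windows of all genes. The Rpl22 window shown has none there, which says only that these letters are not in this window; the window at its other annotated start (chr4:152324396-152324455) has 2. On either strand of the whole windows, CCGGAAG, the core bound by ETS factors, was in 30% of member windows against 8.86% of all. The YY1 motif AAGATGGC was in 15% against 2.75%, and TGACG, the cAMP response element core that TGACGTCA also holds, in 40% against 20.8%. AGGTCA, the core site of nuclear receptors such as those of T3, was in 20% against 16.3%, TGACGTCA in 5.00% against 1.79%, CACGTG in 10.0% against 7.15%, and TATAAA in 7.50% against 13.6%. A match is a description of letters and not a site bound by a factor.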

How the data were processed

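Liver RNA of 20 mice was sequenced, and the deposited values are whole-number counts of reads per gene symbol, which the authors obtained with HTSeq and the mm10 build, per the submitters' processing notes. The version, annotation, aligner and strand option were not given in the sources used here. RNA came from a Qiagen kit and libraries from a Lexogen kit, per the labels. The authors deposited 13319 symbols, each with at least 20 counts in some library, and totals of 6091917 to 23195658 counts.

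The members and all gene lists were chosen with earlier results of these data known. Groups followed the treatment label. Genes were filtered with filterByExpr (minimum count 10, minimum total 15; 12907 kept, 412 dropped), scaled by TMM and fitted in edgeR 4.0.16 (R 4.3.3) with a quasi-likelihood model of 5 group means over all 20 libraries. Contrasts were tested over all genes with Benjamini-Hochberg adjustment, and adjusted p under 0.05 was called. The biological coefficient of variation was 27.8%. The fit was tested on simulated data. Errors are SE of log2 changes, or SD. The libraries are of individual mice, per the series' design text.

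In all comparisons the text names, with values, called members, a panel of Rplp0, Rplp1, Rplp2, Rps3, Rps27l, Rpl3, Rpl3l, Rpl5 and Rps4x, the lowest member, and up to 3 genes of smallest p or growth signalling genes of each list; others are named as chosen after their values were seen, or only for level, lane or sequence. Values of 2 members are not reported here. Positions and transcripts came from GENCODE M21 (GRCm38), matched by name for 44 of 44 members. Windows of 50 bases were compared exactly on the transcript strand. Promoters came from RefSeq (GRCm38.p6). Alternatives were RLE and upper quartile factors, library totals alone, no filter, DESeq2 1.42.0, replicate number as a block, the compared groups alone, each library left out, and control replicate 2 with glucagon replicate 3 left out. Replicate number marks the lane in 16 libraries, per the labels. Deviations from the group means of libraries with the same number had correlations of -0.318 to 0.462 between those groups.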

Additional observations from a re-analysis of the deposited data

Results flagged for a closer look

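Within groups of 4 libraries, 8 of 80 groups checked over the named members and the summed share held a library whose gap to the nearest other exceeded Dixon's 95% critical value for groups of 4. Chance flags about 1 in 20 groups (5%), against 10% here. The groups reuse the same 20 libraries across genes, so the flags are not independent.

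Control replicate 1 was flagged in 2 genes, high in Rpl4 (304 CPM) and low in Rps2 (1.98 CPM). Glucagon replicate 3 was flagged in 3 genes, high in Rpl3l (12.6 CPM) and Rpl4 (161 CPM) and low in Rps15a (3.45 CPM). Rpl3l was also flagged in hybrid replicate 4, at 1.68 CPM. Rps2 in glucagon replicate 2 (7.24 CPM) and Rps27l in T3 replicate 4 (6.07 CPM) were each the highest of a narrow group. Causes of these values were not tested.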

How the results depend on the processing

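Fitted on the compared groups alone, edgeR called 0 members with glucagon, 0 with T3, 0 with the combination and 1 with the hybrid against control, and 2 in the hybrid against T3; the cause was not tested beyond the smaller number of libraries. Under library totals alone the median over all genes was -0.24 with glucagon, 0.17 with T3, 0.10 with the combination and 0.24 with the hybrid, and 0.31 and 0.44 in the combination and the hybrid against glucagon. The members' medians moved with it, to -0.22, 0.34, -0.0032 and 0.16, and to 0.30 and 0.45, and 3 and 6 members then rose against glucagon. Rpl10a with glucagon, Rpl4 with the combination and the hybrid and Rps27l with the hybrid were not called under that scaling. With the trend on exon length subtracted, the medians were 0.077 with glucagon and 0.038 with the hybrid. Replicate number as a block gave 6 members called with T3 (5 higher, 1 lower) and 2 in the hybrid against T3; the numbers mark no lane in the T3 group. Rpl4 with the hybrid was lost under that block (adjusted p = 0.0559, edgeR), and it changed no other call of a named member. Without control replicate 2 and glucagon replicate 3, 5 members were called with T3.

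With each library left out in turn, the fits gave 2 to 4 members called with glucagon, 0 to 7 with T3, 2 to 6 with the combination, 2 to 6 with the hybrid, 0 to 2 in the hybrid against T3, 0 to 1 in the hybrid against glucagon and for additivity, and 0 to 0 in the other comparisons. Medians ran from -0.271 to 0.0151 with the combination, -0.158 to 0.039 with the hybrid, -0.0317 to 0.169 in the hybrid against the combination and -0.0167 to 0.164 in the hybrid against glucagon. Mean shares of counts with the 50 top other genes taken out were 0.281% in control, 0.219% in glucagon, 0.282% in T3, 0.258% in the combination and 0.280% in the hybrid. Over the named members, 3762 of 3849 alternative values kept their side of the threshold, 71 lost a call, 16 gained one and 0 reversed. Most of the 135 named results were not called in the main fit, and a call can be lost only where there was one. The part that kept its side therefore does not measure how firm the calls were. The typical member had 30.5 to 71 counts per library, which limits the changes that could be detected.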
